A study of Mus musculus with 16 samples.

Results

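The 4 genes described here, Nefl, Nefm, Nefh and Ina, encode the filament chains of the neuronal axon: the light, medium and heavy neurofilament chains and alpha-internexin. They were taken by gene symbol from the deposited tables of 16 mouse cortex libraries, each made from the tissue of 1 mouse, and are 4 of the 24060 genes listed. All 4 were among the 12015 genes with a mean of at least 1 RPKM (reads scaled by gene length and library depth) that entered the tests. The mice were 8 to 9 months old, of the strain label C57BL/6; C3, and fell into 4 genotypes of 4 mice, each with 2 females and 2 males. The control group was TREM2+/+ without the tau transgene. The other groups all carried P301S, a human tau variant known from inherited tauopathy, and had both Trem2 alleles (P301S+ TREM2+/+), 1 allele (P301S+ TREM2+/-) or none (P301S+ TREM2-/-). Trem2 encodes a receptor of microglia. No group lacked Trem2 without the transgene, and the labels give neither the promoter of the transgene nor litters or batches. Where nothing states how mice were paired or handled, p-values measure the spread between these mice only.

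Neurofilaments are intermediate filaments that fill the inside of axons and set their diameter, which in turn sets conduction speed. The light chain forms the core of the filament together with the medium and heavy chains, whose long tails project sideways and are heavily phosphorylated in the axon, while alpha-internexin co-assembles with all 3 in the mature central nervous system. Neurofilament light chain released from injured axons is widely measured in spinal fluid and blood as a sign of axonal damage, including in tauopathy models. That protein signal is not measured by the transcripts described here.

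In GRCm38 (mm10), with GENCODE vM21, Nefl lies at chr14:68083863-68089095 on the plus strand and Nefm on the minus strand of the same chromosome, its 3-exon transcript at chr14:68119283-68124846. A longer Nefm transcript of 4 exons starts at the same base and ends at 68082590, so that its annotated span runs antisense across Nefl. Nefh lies at chr11:4938754-4948064 on the minus strand, and Ina at chr19:47014698-47025327 on the plus strand, where it overlaps Nt5c2 on the minus strand. Nothing at hand states whether counting used the strand or the longer Nefm transcript. In the RefSeq annotation Nefm spans chr14:68119545-68125004, clear of Nefl. Without the strand, reads that fall where exons of different genes overlap cannot be told apart. Whether exons overlap, and not only spans, was not examined here. The 4 proteins share the end of the central rod, the stretch by which intermediate filament chains pack together. The coding sequence of that stretch is shown because the chains are most alike there, with the bases identical in all 4 genes in capitals. Each spans 2 exons.
Nefl (chr14:68086073-68086520, plus): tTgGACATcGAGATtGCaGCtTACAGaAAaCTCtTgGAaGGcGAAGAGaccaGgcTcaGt
Nefm (chr14:68121351-68122846, minus): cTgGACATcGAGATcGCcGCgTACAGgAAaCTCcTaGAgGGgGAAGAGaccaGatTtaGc
Nefh (chr11:4941382-4943876, minus): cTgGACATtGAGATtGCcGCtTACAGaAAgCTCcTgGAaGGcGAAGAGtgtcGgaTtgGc
Ina (chr19:47021932-47023368, plus): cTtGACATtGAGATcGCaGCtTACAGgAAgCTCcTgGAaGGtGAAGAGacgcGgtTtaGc
Of the 60 bases, 39 were identical in all 4 genes, and pairs shared 45 (Nefm and Nefh) to 50 (Nefh and Ina). The tails set the chains apart. The coding sequence gave 543 residues for Nefl, 501 for Ina, 848 for Nefm and 1090 for Nefh. The triplet lysine-serine-proline, the site at which the tails are phosphorylated, occurred 51 times in Nefh, 4 times in Nefm and not at all in Nefl or Ina. In Nefh these triplets made up 14.0% of the residues. A stretch of 108 bases from its tail shows the repeat, with the codons of each of 6 triplets in capitals, starting at codon 519.
Nefh repeat (chr11:4940956-4941063, minus): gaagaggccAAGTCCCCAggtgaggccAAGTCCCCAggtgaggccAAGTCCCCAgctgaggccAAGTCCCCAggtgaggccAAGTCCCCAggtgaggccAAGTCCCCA

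The libraries held 2552467 to 14473181 reads, and the 4 genes together 2030 to 10804 reads per library. Trem2 was at 12.4 ± 5.53 RPKM (SD, n = 4) in controls, 27.0 ± 8.69 in P301S+ TREM2+/+, 12.9 ± 8.98 in P301S+ TREM2+/- and 2.09 ± 1.11 in P301S+ TREM2-/- mice. The summed level of 11 pan-neuronal markers lay between 3670 and 4920 RPKM in every library, none of them at 0 throughout. One library stood apart from all others, the female control with replicate number 3. limma's array weights, which measure how well a library fits its group across all genes, gave it 0.0448 against 0.599 to 4.57 for the other 15. Its values are therefore given beside the results, and results that it moves far are also given without it. The 2 P301S+ TREM2+/+ females had the next highest share of reads on the 4 genes together. In bulk tissue, fewer cells of a type and less RNA per cell cannot be told apart.

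Nefl, the core chain, had the highest level per length. In control replicates 1 to 4 it was at 115.7, 134.6, 300.0 and 111.4 RPKM. In P301S+ TREM2+/+ mice the values were 130.8, 163.3, 150.8 and 111.8 RPKM, in P301S+ TREM2+/- mice 139.9, 137.6, 128.0 and 108.9, and in P301S+ TREM2-/- mice 131.6, 119.6, 121.2 and 117.9. Apart from control replicate 3, which was 2.49 times the mean of the other controls, every library lay between 109 and 163 RPKM and the genotypes overlapped. Group means were 165 ± 90.3 (SD, n = 4) in controls, 139 ± 22.6, 129 ± 14.1 and 123 ± 6.14 in the 3 tau groups with 2, 1 and no Trem2 alleles, and 121 ± 12.4 (n = 3) in the controls without replicate 3.

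Nefm, the medium chain, was the most variable of the 4 once control replicate 3 was set aside, with a coefficient of variation of 34.3% over 15 libraries against 19.9% for Nefh, 16.6% for Ina and a lower value still for Nefl. Its values in P301S+ TREM2+/+ mice were 194.9, 163.9, 92.4 and 71.0 RPKM. The first pair are the females and the second the males, and the females were 2.2 times the males on average. No other library reached the lower of these 2 females. Controls were at 70.3, 84.6, 122.8 and 86.2 RPKM, P301S+ TREM2+/- mice at 96.2, 96.4, 70.5 and 95.8, and P301S+ TREM2-/- mice at 94.2, 116.9, 86.9 and 91.9. The 2 P301S+ TREM2+/+ males lay within the range of the other groups. Means were 90.9 ± 22.4 (SD, n = 4) in controls, 131 ± 58.4 in P301S+ TREM2+/+, 89.7 ± 12.8 in P301S+ TREM2+/- and 97.5 ± 13.3 in P301S+ TREM2-/- mice.

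Nefh, the heavy chain, was the lowest of the 4 in every library. Controls were at 13.8, 15.0, 23.6 and 9.95 RPKM, and P301S+ TREM2+/+ mice at 21.5, 18.4, 16.2 and 11.1. P301S+ TREM2+/- mice were at 15.5, 17.6, 13.3 and 14.0 RPKM, and P301S+ TREM2-/- mice at 15.8, 14.9, 12.4 and 12.4. The highest values were again control replicate 3 and the P301S+ TREM2+/+ females. Ina, which is made earlier in development than the other chains, was at 61.6, 63.8, 121.8 and 55.4 RPKM in controls and at 78.2, 75.7, 50.2 and 46.3 in P301S+ TREM2+/+ mice. In P301S+ TREM2+/- mice it was at 69.3, 55.6, 52.9 and 46.6 RPKM, and in P301S+ TREM2-/- mice at 65.3, 52.5, 53.1 and 59.8. The 4 genes together took 0.137% of the reads of control replicate 3, 0.115% and 0.11% of those of the P301S+ TREM2+/+ females, and 0.0602 to 0.0809% of the reads of the other 13 libraries.

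**Figure D1:**
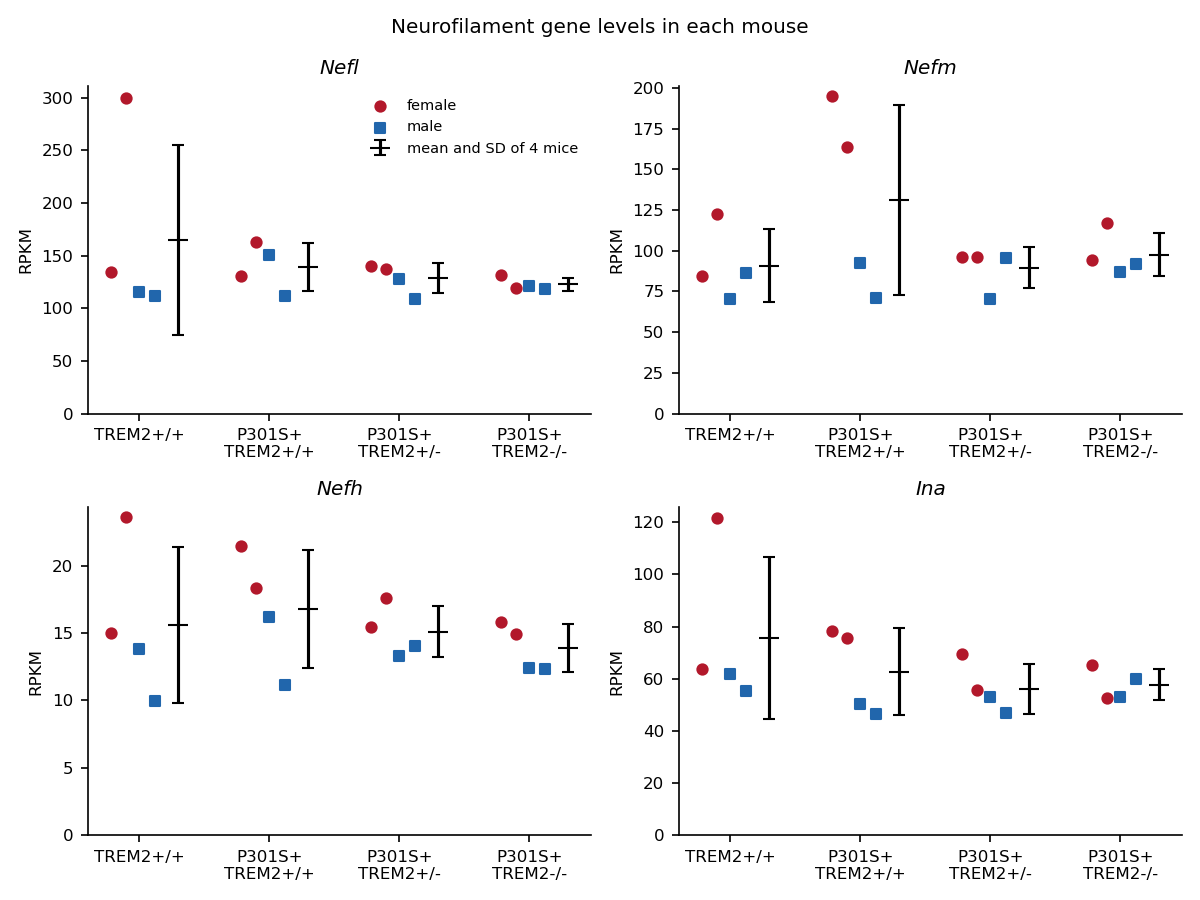
RPKM of Nefl, Nefm, Nefh and Ina (vertical axes, from 0) in each of 16 mice, by genotype, with females as red circles, males as blue squares and the mean with SD of 4 mice in black. Control replicate 3 is the highest circle of the TREM2+/+ group in every panel (300.0 RPKM for Nefl), and the P301S+ TREM2+/+ females hold the highest Nefm levels, 194.9 and 163.9 RPKM.

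Per length, the order of the levels was Nefl, Nefm, Ina and Nefh. Over 16 mice the means were 139 ± 45.5, 102 ± 33.9, 63.0 ± 18.3 and 15.3 ± 3.6 RPKM (SD). Nefl exceeded Nefm in 14 of 16 libraries, the exceptions being the P301S+ TREM2+/+ females, and Nefm exceeded Ina and Ina exceeded Nefh in 16 of 16. The ranges of Nefl and Nefm overlapped, as did those of Nefm and Ina, whereas Nefh was separate from the rest. This order depends on the scale for the first pair. QuantSeq counts reads near the 3' end, and the gene lengths by which the deposited values were divided worked out at 2001 bases for Nefl, 3230 for Nefm, 3992 for Nefh and 2259 for Ina. In reads, Nefl exceeded Nefm in 4 of 16 libraries.

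To ask whether the tau transgene or the loss of Trem2 moved these genes, genotypes were compared on the log2(RPKM + 1) scale with limma, with sex as a covariate and Benjamini-Hochberg adjustment over all 12015 genes. None of the 4 genes passed an adjusted p of 0.05 in any of 7 comparisons of genotypes, nor in the test for any difference among the 4 genotypes. With all mice at equal weight, none had an unadjusted p under 0.05 in these tests either, with limma or with limma-voom on reads. Other settings gave such values, none of them past the adjusted threshold. With array weights, the unadjusted limma p of Nefm was 0.0065 for the P301S difference (P301S+ TREM2+/+ minus control), 0.0099 for the loss of 1 Trem2 allele, 0.038 for the loss of both and 0.032 for any difference among genotypes, and that of Nefh was 0.036 for the P301S difference. Without control replicate 3, Nefm had 0.030 for the P301S difference and 0.042 for the loss of 1 allele. Leaving out a tau male, P301S+ TREM2+/+ replicate 4, gave 0.0099 for the Nefm P301S difference (0.61, adjusted p of 0.15 by limma). The groups of all 4 genes overlapped in all 6 pairs of genotypes. Few genes of any kind were called. The share of all tested genes past the adjusted threshold was 0.0% for the P301S difference, 0.0% for the loss of 1 allele, 0.00832% for the loss of both, 0.0% for both against 1, 0.0% for P301S+ TREM2+/- and 0.0% for P301S+ TREM2-/- against control, 0.00832% for all tau mice against control and 0.0% for any difference among genotypes. The share of all genes whose groups did not overlap was 4.83%, 2.85%, 7.62%, 5.37%, 4.39% and 3.79% in the 6 pairs in the same order. At an unadjusted p under 0.05 the shares were 13.8%, 2.7%, 9.9%, 3.42%, 9.6%, 9.71% and 16.4% for the 7 comparisons and 7.95% for any difference.

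The P301S difference was largest for Nefm, 0.43 ± 0.21 (SE) with an adjusted p of 0.38 by limma and a 95% confidence interval of -0.03 to 0.89. Both tau females lay above every control and both tau males within the control range. For Nefh the difference was 0.13 ± 0.17 with an interval of -0.24 to 0.49, for Nefl -0.13 ± 0.23 with -0.63 to 0.36, and for Ina -0.23 ± 0.20 with -0.65 to 0.19. The median of all tested genes was 0.057. When control replicate 3 was left out, the Nefl difference was 0.17 ± 0.12, with the opposite sign, and the Ina difference -0.03 ± 0.14. Those of Nefm and Nefh then stood at 0.51 ± 0.21 and 0.28 ± 0.14, with adjusted p of 0.20 and 0.27 by limma. With array weights they were 0.60 ± 0.19 and 0.30 ± 0.13, with adjusted p of 0.074 and 0.16.

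Loss of 1 Trem2 allele in tau mice gave a difference of -0.43 ± 0.21 for Nefm (adjusted p of 1.0 by limma, interval -0.89 to 0.03). The other 3 genes differed by -0.11 ± 0.23 (Nefl), -0.12 ± 0.17 (Nefh) and -0.13 ± 0.20 (Ina). Loss of both alleles gave -0.31 ± 0.21 for Nefm (adjusted p of 0.64), -0.17 ± 0.23 for Nefl, -0.23 ± 0.17 for Nefh and -0.08 ± 0.20 for Ina. All 8 values are negative and share the same P301S+ TREM2+/+ mice. With both females of that group and control replicate 3 left out, the Nefm differences were 0.03 and 0.15. Those females had the highest Nefm levels of all libraries, so leaving them out lowers their group by construction and tests nothing. Their array weights were 0.68 and 1.3, against 0.694 and 0.599 for the males of that group. Between both alleles lost and 1 lost, the differences ran from -0.11 (Nefh) to 0.12 (Nefm).

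Against control, Ina was lower by the fit in each tau group, with -0.37 ± 0.20 in P301S+ TREM2+/-, -0.32 ± 0.20 in P301S+ TREM2-/- and -0.31 ± 0.16 over all tau mice (adjusted p of 0.50, 0.45 and 0.33 by limma). Leaving out control replicate 3 gave -0.16, -0.12 and -0.10. Nefl over all tau mice was at -0.22 ± 0.19 with that library and at 0.08 ± 0.10 without it. Nefm and Nefh over all tau mice were at 0.18 ± 0.18 and 0.01 ± 0.14, and at 0.26 ± 0.18 and 0.16 ± 0.12 without it. These comparisons share the 4 control mice.

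**Figure D2:**
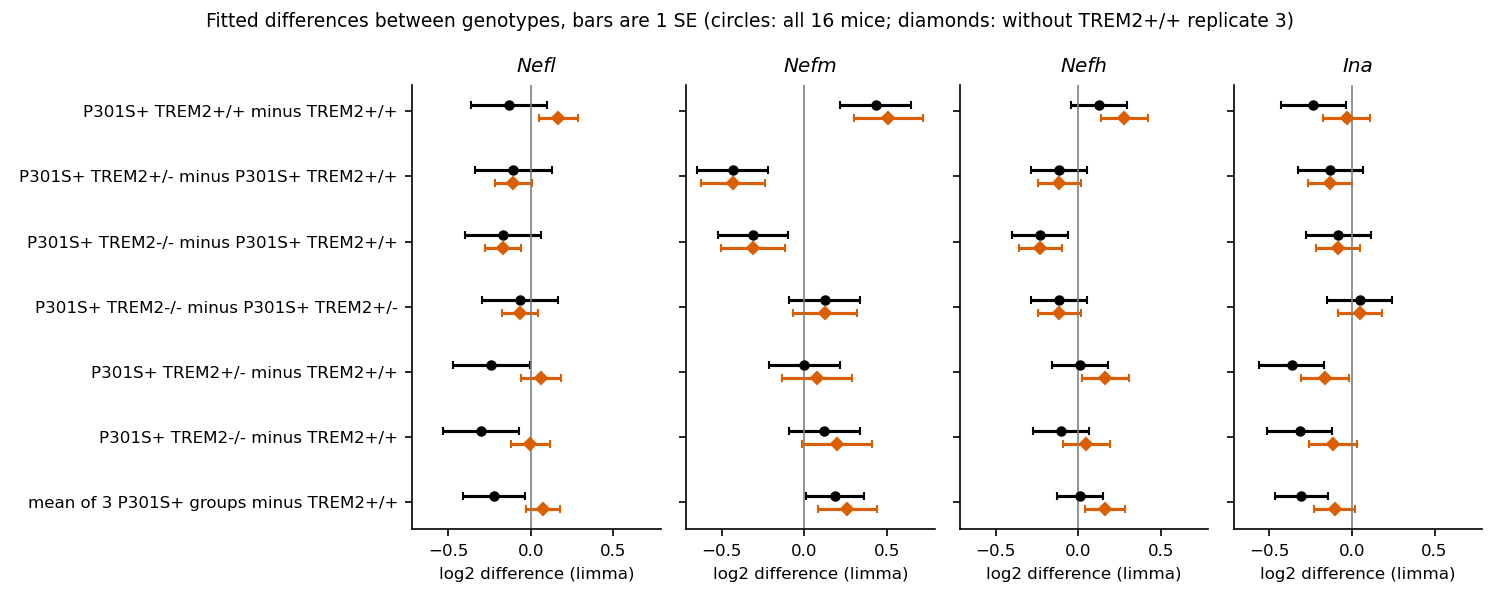
Fitted log2 difference (horizontal axes) of each gene in 7 comparisons of genotypes, with bars of 1 SE; black circles use all 16 mice and orange diamonds leave out control replicate 3. The Nefl values against control move from -0.13 to 0.17 for P301S+ TREM2+/+ when that library is left out, while the comparisons among tau groups keep their values.

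Sex showed the same direction for all 4 genes. Over 8 females and 8 males, Nefl averaged 157 and 121 RPKM, Nefm 121 and 83.1, Nefh 17.8 and 12.9, and Ina 72.8 and 53.2. In the fit, males minus females was -0.43 ± 0.12 (SE) for Nefh, -0.49 ± 0.15 for Nefm, -0.40 ± 0.14 for Ina and -0.32 ± 0.16 for Nefl. The adjusted p was 0.31 for the first 3 and 0.37 for Nefl by limma, so none passed. Of all genes, 0.0416% passed the adjusted threshold for sex and 14.1% had an unadjusted p under 0.05, as 3 of the 4 genes did (Nefh 0.0031, Nefm 0.0056 and Ina 0.011, against 0.068 for Nefl). Leaving out control replicate 3, a female, the differences were -0.35 ± 0.10, -0.45 ± 0.14, -0.30 ± 0.10 and -0.17 ± 0.08 in the same gene order. With array weights they were -0.35, -0.30, -0.26 and -0.20, the smallest adjusted p being 0.095 for Nefh. By genotype, in the same gene order, log2 of male over female mean RPKM was -0.702, -0.406, -0.665 and -0.937 in controls. It was -0.545, -1.13, -0.673 and -0.163 in P301S+ TREM2+/+ mice, and -0.274, -0.212, -0.326 and -0.228 in P301S+ TREM2+/- mice. In P301S+ TREM2-/- mice it was -0.312, -0.24, -0.0614 and -0.0713. Control replicate 3 and the P301S+ TREM2+/+ females held the highest shares of reads on the 4 genes. No fit of the sex term left all of these out.

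The order within genotypes was looked at after the values were seen. Both females lay above both males in 4 of 4 genotypes for Nefh, in 3 for Nefm and Ina and in 2 for Nefl. At least 3 genotypes with that order were found in 2.56% of all tested genes and all 4 in 0.141%. The exceptions were the controls and no other genotype for Nefm, P301S+ TREM2-/- for Ina, and P301S+ TREM2+/+ and P301S+ TREM2-/- for Nefl. Among the 16 lists of marker and pathway genes, the summed level of 13 axonal transport motors averaged 1320 ± 218 RPKM (SD, n = 8) in females and 1120 ± 48.7 in males. That gap is carried by 3 females, control replicate 3 at 1750 and the P301S+ TREM2+/+ females at 1520 and 1370, as the other 13 libraries lay between 1050 and 1210. For 14 genes of the microtubule and spectrin skeleton the averages were 2960 ± 751 in females and 2430 ± 261 in males, and 2710 ± 260 in females without control replicate 3. For 10 markers of layer 5 projection neurons, cells with thick long axons, the sums were 1110 ± 231 and 1090 ± 219, and for 11 pan-neuronal markers 4340 ± 384 and 4310 ± 416. Striatal markers summed to 717 ± 209 in females and 1090 ± 596 in males. The part of any of these in the sex difference was not tested.

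**Figure D3:**
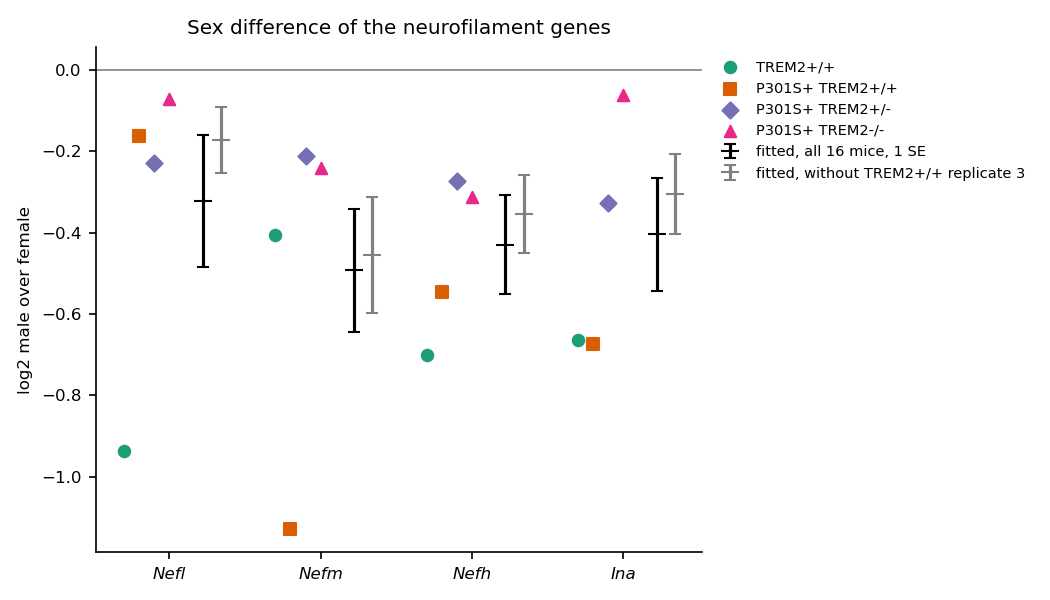
Sex difference of each gene (vertical axis, log2 of male over female): coloured points are the ratio of the mean RPKM of 2 males to that of 2 females in each genotype, and bars are the limma estimate with 1 SE over all mice (black) and without control replicate 3 (grey). All 16 points lie below 0, between -1.13 (Nefm in P301S+ TREM2+/+) and -0.06 (Ina in P301S+ TREM2-/-).

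Whether a genotype difference itself depended on sex was tested in a fit with 8 groups of 2 mice. For the loss of 1 Trem2 allele, the Nefm difference was -0.89 in females and 0.02 in males, which differ by 0.91 ± 0.36 (SE), and for the loss of both it was -0.76 and 0.14, which differ by 0.90 ± 0.36. The P301S difference of Nefm was 0.80 in females and 0.06 in males, a difference of -0.75 ± 0.36. The limma p was 0.026, 0.027 and 0.058, and the adjusted p 0.74, 0.62 and 0.38, so none passed. All 3 rest on the same 2 P301S+ TREM2+/+ females. An unadjusted p under 0.05 was found in 6.48%, 7.24% and 13.5% of all genes for these 3 tests, and an adjusted one in 0.0%, 0.0% and 0.00832%. The adjusted p were 0.088, 0.080 and 0.098 by limma when control replicate 3 was left out. The differences between sexes for Nefl, Nefh and Ina lay between -0.08 and 0.65, with no unadjusted p under 0.05 when all mice were kept at equal weight. Without control replicate 3, that of the P301S difference moved from 0.65 to 0.07 for Nefl and from -0.08 to -0.54 for Ina (unadjusted limma p of 0.045 for Ina, adjusted 0.27). For the loss of both alleles that of Ina was 0.61, with an unadjusted limma p of 0.14 with all mice at equal weight. The limma p was 0.023 with array weights (adjusted 0.19) and 0.015 without that library (adjusted 0.14).

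The balance of the chains was then described as ratios within a library, which do not depend on its depth. Nefm over Nefl was 1.49 and 1.0 in the P301S+ TREM2+/+ females, 0.613 and 0.635 in the males of that genotype, and 0.409 in control replicate 3. The other 11 libraries lay between 0.551 and 0.977. In the female with 1.49, Nefh over Nefl (0.164) and Ina over Nefl (0.598) were also the highest of all libraries, so that Nefl was low there against each of the other 3 chains. Nefh over Nefl had a median of 0.111 and was lowest in control replicate 3, at 0.0788. Ina over Nefl ranged from 0.333 to 0.598 with a median of 0.451. In 18 two-sided exact permutation tests of genotype pairs, the lowest p was 0.0857, for Nefm over Nefl in P301S+ TREM2-/- mice against controls (0.42 higher on the log2 scale, adjusted p of 0.707). The smallest p that 4 against 4 mice allow is 0.0286.

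**Figure D4:**
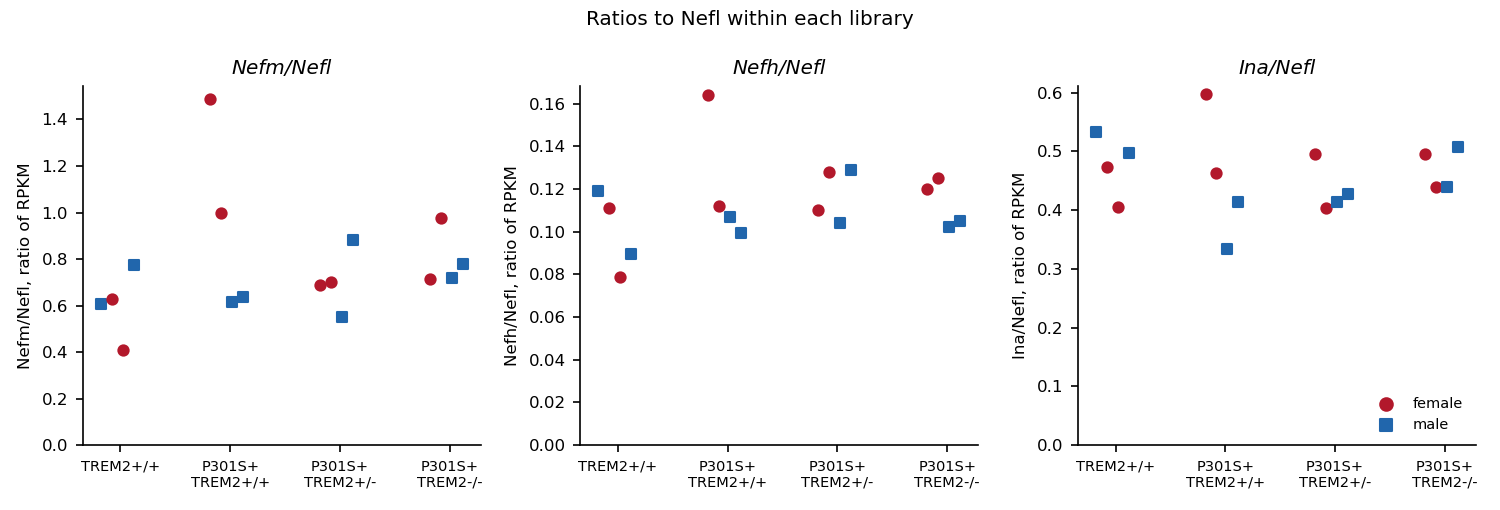
Ratios of RPKM of Nefm, Nefh and Ina to Nefl in each library (vertical axes, from 0), by genotype, with females as red circles and males as blue squares. In the Nefm panel the P301S+ TREM2+/+ females stand at 1.49 and 1.0 and the other libraries between 0.409 and 0.977.

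Across mice all 6 pairs had a positive r, in an order of pairs that depended on the measure and the libraries kept. Without control replicate 3, rho was 0.779 for Nefl and Nefh and 0.729 for Nefm and Nefh (adjusted permutation p of 0.0057 and 0.0076). For the other pairs rho was then 0.375 to 0.546, with adjusted permutation p of 0.075 to 0.17. The adjusted permutation p of r was 0.082 for Nefl and Nefm there, and 0.0083 to 0.044 for the others. Of 6 pairs over 16 libraries, Nefl and Nefh had r = 0.754 and rho = 0.818 (permutation p of 0.00011 and 0.00018, adjusted 0.00066 and 0.0011). Nefm and Nefh had r = 0.725 and rho = 0.768 (permutation p of 0.0017 and 0.00082, adjusted 0.0026 and 0.0025). Without the 2 libraries farthest from the median of the first gene, r was 0.662 and 0.644 for these pairs, and on deviations from the genotype means it was 0.786 and 0.75. Nefh and Ina had r = 0.751 and rho = 0.626 (permutation p of 0.00065 and 0.011, adjusted 0.0019 and 0.021), r = 0.674 without the 2 farthest libraries and r = 0.84 on deviations from the genotype means. Nefl and Ina reached r = 0.839 and rho = 0.597 (permutation p of 0.0012 and 0.017, adjusted 0.0023 and 0.025), the highest r of the 6 pairs. Its r was 0.543 without control replicate 3 and 0.388 without the 2 farthest libraries, so that its size depended on them. The adjusted permutation p of r was then 0.044 and 0.2. On deviations from the genotype means r was 0.827, and 0.589 without control replicate 3 (adjusted permutation p of 0.026). Nefm and Ina had r = 0.566 and rho = 0.476 (permutation p of 0.029 and 0.063, adjusted 0.035 and 0.063), with r = 0.501 without the 2 farthest. Nefl and Nefm had the lowest r, 0.397, with rho = 0.512 (permutation p of 0.13 and 0.046, adjusted 0.13 and 0.055), with r = 0.231 without the 2 farthest. With both genotype and sex means taken out, r was 0.857 for Nefl and Ina, 0.707 for Nefl and Nefh, 0.651 for Nefh and Ina, 0.511 for Nefm and Nefh, 0.441 for Nefl and Nefm and 0.344 for Nefm and Ina. In the same order of pairs, rho was 0.629, 0.521, 0.379, 0.491, 0.129 and 0.0294. Each genotype holds 2 mice of a sex, so their deviations mirror each other. The 16 values are then not independent, and no conclusion is drawn from them.

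**Figure D5:**
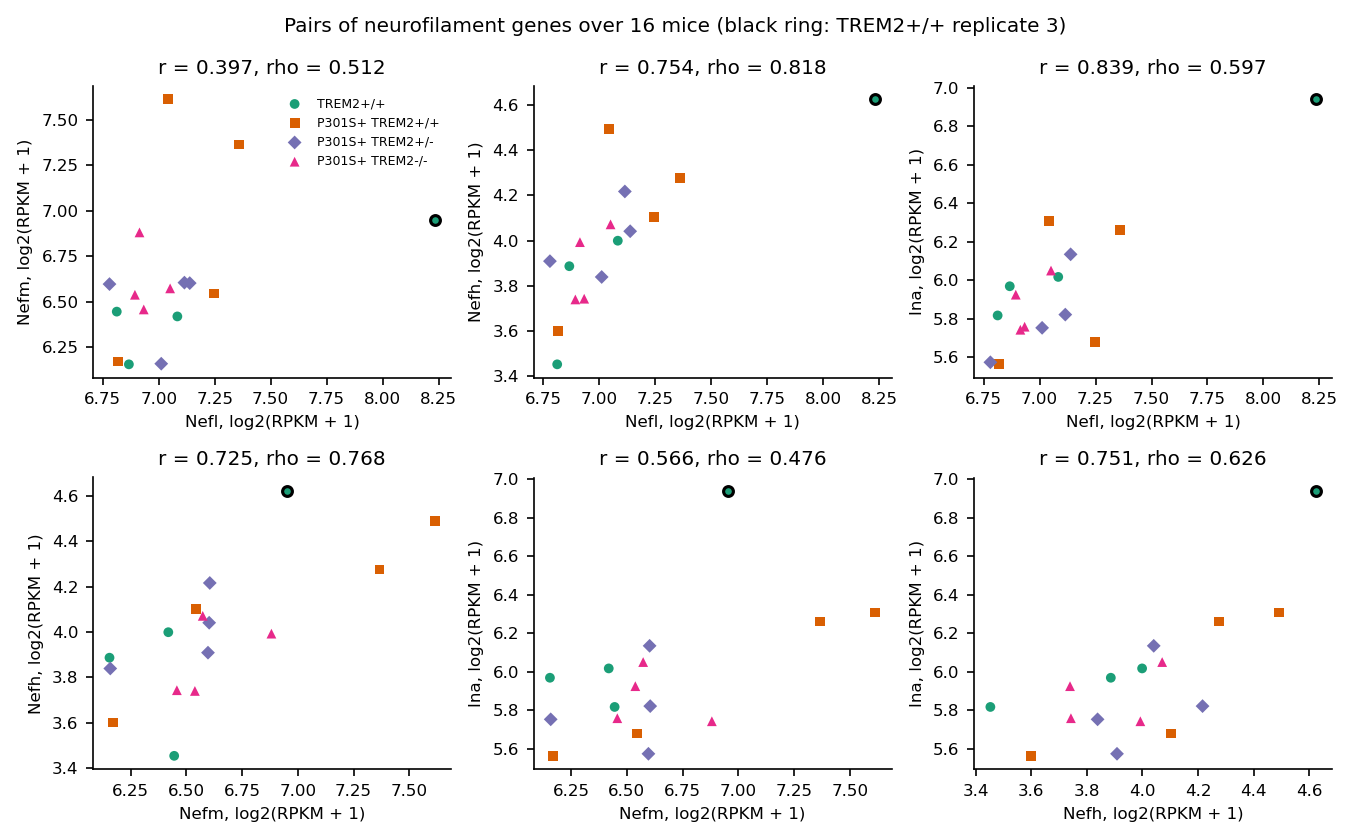
The 6 pairs of neurofilament genes plotted against each other (both axes log2(RPKM + 1)), 1 point per mouse coloured by genotype, with control replicate 3 ringed in black. Nefl against Nefh lies along a line (rho = 0.818), and in the panel of Nefl and Ina (r = 0.839) control replicate 3 is the point at the upper right, away from the rest.

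The genes whose pattern over the 16 libraries was most like that of each chain were ranked by Spearman's rho, as a description with no test. Closest to Ina were Mapk10 (rho = 0.968), a neuronal stress kinase, Ypel3 (0.924), Dctn2 (0.921), a subunit of the dynactin complex of axonal transport, Map3k9 (0.888) and Pnkd (0.885). Closest to Nefh were Cplx1 (0.891), a regulator of synaptic vesicle release, Yif1b (0.885), Dstn (0.876), an actin-severing protein, Lrp3 (0.874) and Ndufv1 (0.871), a subunit of mitochondrial complex I. Nefl was nearest to Afap1l1 (0.871), Ddx24 (0.824), Plcb4 (0.821), Cplx1 (0.797) and Stx17 (0.797), and Nefm to Ppip5k1 (0.865), Ccdc97 (0.853), Syt2 (0.821), Gpn1 (0.785) and Acat2 (0.779). Nefh itself was behind 3 other genes in likeness to Nefl and behind 9 in likeness to Nefm, while Nefl was behind 13 and Nefm behind 33 in likeness to Nefh. Without control replicate 3, 5 of the 5 genes nearest to Nefh stayed in its list, 3 of 5 for Ina, 2 of 5 for Nefm and 1 of 5 for Nefl. With Pearson's r in place of rho, 1 of 5 stayed for Nefh, 3 for Ina, 2 for Nefm and 0 for Nefl.

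By the mean rho to all 4 chains, the first 10 were Syt2 (0.765), Apln (0.76), Xist (0.74), Dlgap4 (0.713), 6330416G13Rik (0.712), Lynx1 (0.712), Ccdc184 (0.709), Lrrc20 (0.707), Rcan2 (0.707) and Eno2 (0.705). Syt2, a calcium sensor of fast-releasing synapses such as those of parvalbumin interneurons, was at 14.7 RPKM in control replicate 3 and at 3.45 to 10.1 in the other libraries. Xist, the RNA that silences an X chromosome in females, was at 6.68 RPKM in control replicate 3 and from 0.00622 to 5.19 elsewhere. Eno2, a neuronal glycolytic enzyme, was at 553 RPKM in that library against a median of 264 in the rest. Without control replicate 3, 7 of these 10 genes remained among the first 10, and with Pearson's r 3 did.

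Genes that build, move or modify neurofilaments were counted in 7 pathway lists, and the cell types of the tissue in 9 marker lists, of 160 different genes with 149 tested. None of the 149 passed the adjusted threshold in any of the 7 comparisons by limma. When control replicate 3 was left out, 2 of them did. Of all 12015 genes, 5 then passed for the P301S difference and 13 for the loss of both alleles. Against control, 3 passed for P301S+ TREM2+/- and 2 for all tau mice. Dctn1, the large dynactin subunit, was at 13.0 ± 0.311 RPKM (SD, n = 4) in P301S+ TREM2-/- and 24.7 ± 6.61 in P301S+ TREM2+/+ mice, a difference of -0.84 with an adjusted p of 0.018 by limma. Mag, a myelin protein facing the axon, was at 33.8 ± 1.47 RPKM in the 3 remaining controls and 64.0 ± 12.2 in P301S+ TREM2+/+ mice, a difference of 0.86 with an adjusted p of 0.034. Mag also passed against control in P301S+ TREM2+/- mice (0.92, adjusted p of 0.021 by limma) and over all tau mice (0.77, adjusted p of 0.034). Without both P301S+ TREM2+/+ females as well, no gene passed for the loss of both alleles or for the P301S difference. Mag then still passed in P301S+ TREM2+/- mice (0.93, adjusted p of 0.010 by limma) and over all tau mice (0.74, adjusted p of 0.040). Neither gene passed with all libraries kept, where the mean of the 4 controls was 69.5 ± 71.4 RPKM for Mag and 27.6 ± 23.7 for Dctn1.

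Of the 13 transport motors, which include the kinesins and the dynein-dynactin complex that carry neurofilaments along the axon, 6 were higher and 7 lower in P301S+ TREM2+/+ than in control mice by the fit, with a median of -0.057 against 0.057 for all genes. These medians were 0.10 and 0.015 when control replicate 3 was left out. In the complete loss of Trem2 1 was higher, and the median was -0.19 against -0.02. Without control replicate 3 and both P301S+ TREM2+/+ females, that median of the motors was -0.036. Those females had the highest motor sums of their group, so leaving them out lowers it by construction and tests nothing. Klc2, a kinesin light chain, averaged 24.3 ± 16.7 RPKM in controls and 11.6 ± 1.53 in P301S+ TREM2+/+ mice, and control replicate 3 was at 48.5 and the other controls at 16.3 ± 5.52 (n = 3). Kif5a, the neuronal kinesin heavy chain, averaged 157 ± 37.3 and 131 ± 22.7, with control replicate 3 at 204 and the other controls at 142 ± 25.4. The summed motor level was 1750 RPKM in control replicate 3 and 1520 and 1370 in the P301S+ TREM2+/+ females, above the range of 1050 to 1210 in the other 13 libraries. In the first of these females Nefm, Nefh and Ina were high and Nefl was not. That of the 14 genes of the microtubule and spectrin skeleton was 4720 in control replicate 3 and 3190 and 2520 in those females, against 2020 to 2870 in the rest. Its genes with the smallest p over genotypes were Ank2, Uchl1 and Map1b. Uchl1, a neuronal ubiquitin hydrolase, averaged 813 ± 706 RPKM in controls and 357 ± 67.9 in P301S+ TREM2+/+ mice. Control replicate 3 was at 1860 and the other controls at 463 ± 117 (n = 3).

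The 14 kinases and phosphatases that act on neurofilament tails were 8 higher and 6 lower in the P301S difference, with a median of 0.009. Cdk5, a kinase of the lysine-serine-proline sites, averaged 41.5 ± 10.5 RPKM in controls, 40.1 ± 2.85 in P301S+ TREM2+/+, 39.7 ± 5.4 in P301S+ TREM2+/- and 30.3 ± 5.36 in P301S+ TREM2-/- mice. Mapk3 averaged 113 ± 26.6 in controls and 83.8 ± 24.4 in P301S+ TREM2+/+ mice. Control replicate 3 was at 52.7 RPKM for Cdk5 and 88.2 for Mapk3, and the other controls at 37.8 ± 9.05 and 122 ± 25.4 (n = 3). Among 10 tested genes of filament turnover and axon survival, 5 were higher, with a median of -0.018. Nmnat2, the axonal enzyme that keeps NAD levels and delays axon degeneration, averaged 36.7 ± 6.82 RPKM in controls and 24.4 ± 3.46 in P301S+ TREM2+/+ mice (difference -0.56 ± 0.15 (SE), adjusted p of 0.27 by limma). Hspb1, a small heat shock protein, averaged 3.28 ± 2.77 and 9.72 ± 6.34, and Stub1 5.34 ± 3.3 and 6.84 ± 2.15. Control replicate 3 was at 0.0 RPKM for Hspb1 and the other controls at 4.37 ± 2.07 (n = 3). For Stub1 that library was at 10.2 and the other controls at 3.74 ± 0.888, and for Nmnat2 these values were 46.3 and 33.5 ± 2.79. In the 13 genes of the axon initial segment and node, 8 were higher with a median of 0.066, and Kcna1, Sptbn4 and Cntnap1 had the smallest p over genotypes. The 3 tested linkers between filaments, Macf1, Plec and Dst, had a median of -0.11. With control replicate 3 left out, the medians were -0.0037 for the kinases and phosphatases, 0.18 for turnover and survival, 0.039 for the initial segment and node and 0.18 for the linkers, and that of the node genes alone kept its sign. Among 6 tested other intermediate filaments, Vim, the filament of glia and vessels, averaged 12.1 ± 3.17 RPKM in controls and 22.2 ± 8.27 in P301S+ TREM2+/+ mice. Control replicate 3 was at 8.13 for Vim and the other controls at 13.4 ± 2.12. Lmnb1, a nuclear lamin, averaged 4.69 ± 3.79 in controls, where replicate 3 was at 10.1, and 2.1 ± 0.353 in P301S+ TREM2+/+ mice. Lmnb2 averaged 7.15 ± 3.88 and 10.5 ± 2.03, with control replicate 3 at 1.47.

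Of the cell types that make neurofilaments, the 11 pan-neuronal markers had 2 higher and 9 lower in P301S+ TREM2+/+ than in control mice, with a median of -0.18, and Elavl3, an RNA-binding protein of neurons, averaged 54.7 ± 14.7 against 93.5 ± 21.2 RPKM (adjusted p of 0.27 by limma). Syp and Rbfox3 were the next by p over genotypes. The summed pan-neuronal level was 3800 RPKM in control replicate 3 and 4430 to 4920 in the other controls, so that library was high in neurofilament genes and not in this sum, although Elavl3, Syp and Rbfox3 were at 109, 104 and 95.8 RPKM there against means of 88.3, 69.6 and 71.8 in the other controls. The 10 layer 5 markers had 8 higher, with a median of 0.18, and 0.071 without control replicate 3. Leaving out both P301S+ TREM2+/+ females as well gave a median of -0.11, with the opposite sign. Those females had the highest layer 5 sums of all libraries, so that step lowers their group by construction and tests nothing. By p over genotypes Rbp4 (0.89) and Pcp4 (0.61) came first, then Tcerg1l, which had the opposite sign (-0.53). Control replicate 3 was at 5.3 RPKM for Rbp4 and the other controls at 20.7 ± 6.57 (n = 3). For Pcp4 these values were 1000 and 550 ± 177, and for Tcerg1l 5.28 and 7.27 ± 0.95. In P301S+ TREM2+/+ mice the 3 genes averaged 28.7 ± 8.78, 952 ± 100 and 5.1 ± 3.57. The sum of the layer 5 markers was 1460 and 1390 RPKM in the P301S+ TREM2+/+ females and 1250 in control replicate 3, against 748 to 1290 in the other libraries. The summed parvalbumin interneuron markers, whose genes with the smallest p were Kcnc1, Lgi2 and Pthlh, were at 471 and 413 in those females, within the range of 293 to 524 of the other libraries. The part of layer 5 cells in the Nefm levels of those females was not tested.

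For the cell types that do not form axons, the medians of the P301S difference were 0.75 for 9 microglial, 0.30 for 11 oligodendrocyte, 0.59 for 7 endothelial and 0.09 for 9 astrocyte markers. At an unadjusted p under 0.05, 5, 3, 5 and 2 of them were higher, as were 9.12% of all genes. When control replicate 3 was left out, the counts were 5, 8, 2 and 2 (10.1% of all genes). Without both P301S+ TREM2+/+ females as well they were 0, 9, 0 and 0 (3.54% of all genes), with medians of 0.35, 0.49, 0.26 and 0.11. Their leading genes by p over genotypes included Tyrobp and C1qc, then Mal, Aspa and Mbp, then Slco1a4, Kdr and Flt1, and then Aldh1l1, Slc1a2 and Slc1a3. Choroid plexus markers (Folr1, Clic6 and Kcnj13) summed to between 68.7 and 1780 RPKM and striatal markers (Rgs9, Ppp1r1b and Pde10a) to between 224 and 1770 over the libraries, and no marker was at 0 throughout. In the P301S+ TREM2+/+ females the choroid plexus sums were 215 and 1650 RPKM, and the striatal sums 776 and 743.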

How the data were processed

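QuantSeq 3' libraries had been made from cortical RNA of 16 mice, per the labels' protocols. The submitters' processing notes name STAR, HTSeq, edgeR, limma and the build mm10, with no versions. The deposited tables hold 1 value per gene. The authors' unit is taken as RPKM from the values: every value of the 18911 genes above 0 was a whole number of reads (tolerance 0.0002 reads or 1e-06 of the value; 100.0% whole), from which depth and gene lengths were recovered. Each file had 1 line that named no gene, which was left out.

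Genes with a mean of at least 1 RPKM were tested with limma 3.58.1 (R 4.3.3, trend on) on log2(RPKM + 1), with genotype and sex as terms over all 16 mice. The script was tested on simulated data. Ratios used exact permutation tests, and relations 100000 permutations (scipy 1.17.1). Intervals of fitted differences use 11 residual and 3.39 prior degrees of freedom. No 2 of 24 replicate pairs were identical, and chi-square per degree of freedom of their reads was 6.87 to 210.0, above sampling noise. Depth averaged 8264556 ± 4237480 reads (SD) in controls and 8005984 ± 3262588, 9292801 ± 1958231 and 5936553 ± 2682626 in tau mice with 2, 1 and no Trem2 alleles. As reads were not marked by molecular identifiers in the sources used here, precision rests on the spread between mice.

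The 4 genes, the lists and the tests were chosen with earlier results of these data known. From each list the 3 tested genes with the smallest F-test p over genotypes were named, and by likeness the 5 genes nearest to each chain and the 10 nearest to all 4. A few genes that this rule names are not reported here. Alternatives changed the pseudocount, filter, scaling, weights, covariate, test and libraries. Counts for lists without control replicate 3, alone or with both P301S+ TREM2+/+ females, were added after seeing the data. So was the order of sexes within genotypes. Sequences come from GENCODE vM21 transcripts on GRCm38.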

Additional observations from a re-analysis of the deposited data

Results flagged for a closer look

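In 28 groups of 4 mice (4 genes and 3 ratios in 4 genotypes), 3 single values stood far from the rest of their group by Dixon's test, which flags about 1 in 20 groups by chance. Nefl in control replicate 3 was at 300.0 RPKM with the nearest control at 135, and the gap made up 0.877 of the group's range. Ina in the same library was at 122 RPKM with the nearest at 63.8 (0.874 of the range). Nefm in P301S+ TREM2+/- replicate 3 was the lowest of its group at 70.5 RPKM, with the nearest at 95.8 (0.979 of the range), which is close to the lowest control (70.3) and P301S+ TREM2+/+ value (71.0).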

How the results depend on the processing

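No paired analysis was possible because the labels number no mice within a genotype and tie none to a litter or batch. The replicate numbers used here only name the mice. Of 668 alternative values of the 28 member differences between genotypes, 626 kept their direction, 42 changed sign and 0 crossed the adjusted threshold. The 76 alternatives of the sex difference and the 76 of the test among 4 genotypes kept their direction and side. All values below are log2 differences. With array weights, the P301S difference was 0.1815 for Nefl, 0.02358 for Ina, 0.5995 for Nefm and 0.3004 for Nefh, P301S+ TREM2+/- minus control was 0.03632 (Nefl) and 0.09746 (Nefm), P301S+ TREM2-/- minus control was 0.001911 (Nefl) and 0.07398 (Nefh), and all tau minus control was 0.07325 (Nefl). With median-ratio scaling, Nefh was at -0.08059 in P301S+ TREM2+/- and at -0.07235 in all tau mice against control. Without control replicate 3 and both P301S+ TREM2+/+ females, the loss of 1 allele gave 0.03279 (Nefm), 0.006537 (Nefh) and 0.1149 (Ina), the loss of both 0.1547 (Nefm) and 0.1635 (Ina), and the P301S difference 0.1688 (Nefl). Against control the same setting gave 0.0614 (Nefl) and 0.1173 (Nefm) for P301S+ TREM2+/-, 0.05928 (Nefh) for P301S+ TREM2-/- and 0.07605 (Nefl) for all tau mice.

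Leaving out 1 mouse at a time, Nefl ranged from -0.2515 to 0.1668 in the P301S difference, -0.1909 to 0.0004603 in the loss of 1 allele, -0.1165 to 0.007279 between both and 1 lost, -0.3567 to 0.0616 in P301S+ TREM2+/- against control and -0.3428 to 0.07553 in all tau mice. Nefm ranged from -0.1303 to 0.07498 in P301S+ TREM2+/- against control. Nefh ranged from -0.1062 to 0.163 there, -0.2211 to 0.04816 in P301S+ TREM2-/- against control and -0.1059 to 0.1634 in all tau mice. Ina ranged from -0.1772 to 0.03621 in the loss of both alleles and from -0.04535 to 0.1681 between both and 1 lost. The sex difference of the Nefh P301S difference became -0.2023 without control replicate 3. Ratios to Nefl ranged for Nefm from -0.3137 to 0.1139 in the loss of both alleles, and for Nefh from -0.09914 to 0.1417 in the loss of 1 and -0.1582 to 0.08259 in the loss of both. Those of Ina ranged from -0.2488 to 0.03268 in the P301S difference, -0.164 to 0.1174 in the loss of 1 allele, -0.05058 to 0.2309 in the loss of both and -0.09347 to 0.0372 in P301S+ TREM2-/- against control. Without control replicate 4, Nefm over Nefl was 0.5548 higher in P301S+ TREM2-/- mice than in controls (0.2485 to 0.5548 over the mice left out), with an exact permutation p of 0.02857 before adjustment. The cause of these changes was not tested.

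Over all genes, 0 passed for the P301S difference, 1 for the loss of both alleles, 0 for P301S+ TREM2+/- against control and 1 for all tau mice. With array weights these counts were 197, 690, 131 and 29, and without control replicate 3 they were 5, 13, 3 and 2. Nefh had the fewest reads of the 4 chains, from 152 to 866 per library.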
